A study of Saccharomyces cerevisiae with 6 samples.

Results

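The genes described here encode factors that assemble the large, 60S subunit of the yeast ribosome and escort it out of the nucleus. They are 44 named genes, chosen by name from the platform annotation of the array, and all 44 were found among the 5449 *Saccharomyces cerevisiae* genes tested, each with 1 probe set. RNA was taken from 3 H2B K37A cultures (strain YKG007, plasmid pKG2) and 3 wild-type H2B cultures (strain YKG001, plasmid pZS145). In H2B K37A, lysine 37 of histone H2B, a site of dimethylation, is replaced by an alanine that cannot be methylated. Both strains are MATa and carry (hta1-htb1)D::LEU2 and (hta2-htb2)D::TRP1, together with leu2D1, ura3-52, lys2D1, lys2-128d, his3D200 and trp1D63, so that the *HIS3* plasmid is the only source of H2A and of Flag-tagged H2B. All cultures were grown side by side in YPD, a rich glucose medium, and were collected in mid-exponential phase without synchronization. The comparison asks whether loss of this lysine changes transcript levels. It rests on 1 mutant and 1 wild-type strain, so what the mutation does and what any other difference between the strains does cannot be told apart.

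Ribosome assembly begins in the nucleolus, where the rRNA precursor is transcribed, modified, folded and cut while ribosomal proteins join it. Assembly factors bind the pre-60S particle in an ordered way, act once or for several steps, and leave. GTPases and ATPases drive several of these departures. The particle passes from the nucleolus to the nucleoplasm, is exported through the nuclear pore, and sheds its last factors in the cytoplasm. In yeast the genes of these factors are known to be expressed together as the ribosome biogenesis regulon, high in rapidly growing cells and reduced under starvation and stress.

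Each value is a log2 signal computed by the authors with RMA, which gives all arrays the same overall distribution of probe signals. Across the tested probe sets, Pearson's r (a description, since genes are not independent) ranged from 0.994 to 0.998 between K37A arrays, 0.997 to 0.998 between wild-type arrays and 0.984 to 0.996 between the strains. All 44 genes lay above the background level of 6.30, the 95th percentile of 1747 probe sets that name genes outside the *S. cerevisiae* table, and the mean signal of a member over the 6 arrays was 9.89 to 13.5. The MATa label was checked with genes of each mating type. *STE2*, the receptor of MATa cells, had 13.46 ± 0.08 in K37A and 13.37 ± 0.02 in wild-type cells (SD, n = 3 each), whereas the alpha pheromone gene *MF(ALPHA)1* had 5.77 ± 0.15 in K37A and 5.75 ± 0.07 in wild-type cells (SD, n = 3 each), below background. The other alpha-specific genes lay above background. *MF(ALPHA)2* had 7.94 ± 0.16 in K37A and 7.88 ± 0.10 in wild-type cells (SD, n = 3 each), and *STE3*, the receptor of alpha cells, had 8.47 ± 0.08 in K37A and 8.67 ± 0.06 in wild-type cells (SD, n = 3 each). None of 6 a-specific and 3 alpha-specific genes passed the test described next. *ACT1* (actin) differed by -0.01 on the log2 scale and *HTB1*, the H2B gene on the plasmid, by -0.06, and neither passed. For *HTB1* every K37A array lay below every wild-type array, as for 21.5% of all tested probe sets. Both genes had strain means of 14.4 to 14.5. At signals of 13 or more the median size of the difference over all tested probe sets was only 0.03.

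Transcripts of the 60S assembly factors were slightly more abundant in H2B K37A cells. The difference, K37A minus wild type, was above 0 for all 44 genes, against 50.7% of all tested probe sets, and its median was 0.15 on the log2 scale, a ratio of 1.11, against a median of 0.0015 over all tested genes. By limma, with Benjamini-Hochberg adjustment over 5498 probe sets, 9 of the 44 rose, none fell and 35 did not pass. These 9 are 20.5% of the members, where 14.5% of all tested probe sets were called in either direction 6.44% were called higher and 8.08% lower. At an unadjusted p under 0.05 there were 23 members, all higher, or 52.3%, against 34.98% of all tested probe sets in either direction and 16.9% higher. No member differed 2-fold, and only *REI1* and *RSA4* reached 1.5-fold. The 95% interval of the difference lay within 2-fold for all 44 and within 1.5-fold for 38. In 28 members every K37A array lay above every wild-type array, which held for 20.6% of all tested probe sets. In none did every K37A array lie below, which held for 21.5%. The number of probe sets called by limma depended on single arrays throughout the genome, and the number of members moved with it. No member was called without K37A replicate 2, where 0.127% of all tested probe sets were called, or without wild-type replicates 1, 2 or 3, where 1%, 0.0364% and 2.46% were called. In these settings 17 to 23 members had an unadjusted p under 0.05, among 1435 to 1660 probe sets in all. Without K37A replicate 1 there were 21 members called, with 20.7% of all tested probe sets called and 9.55% called higher, and without K37A replicate 3 there were 6, with 9.11% called and 4.35% called higher. The median difference stayed at 0.11 to 0.20 in these 6 settings.

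**Figure D1:**
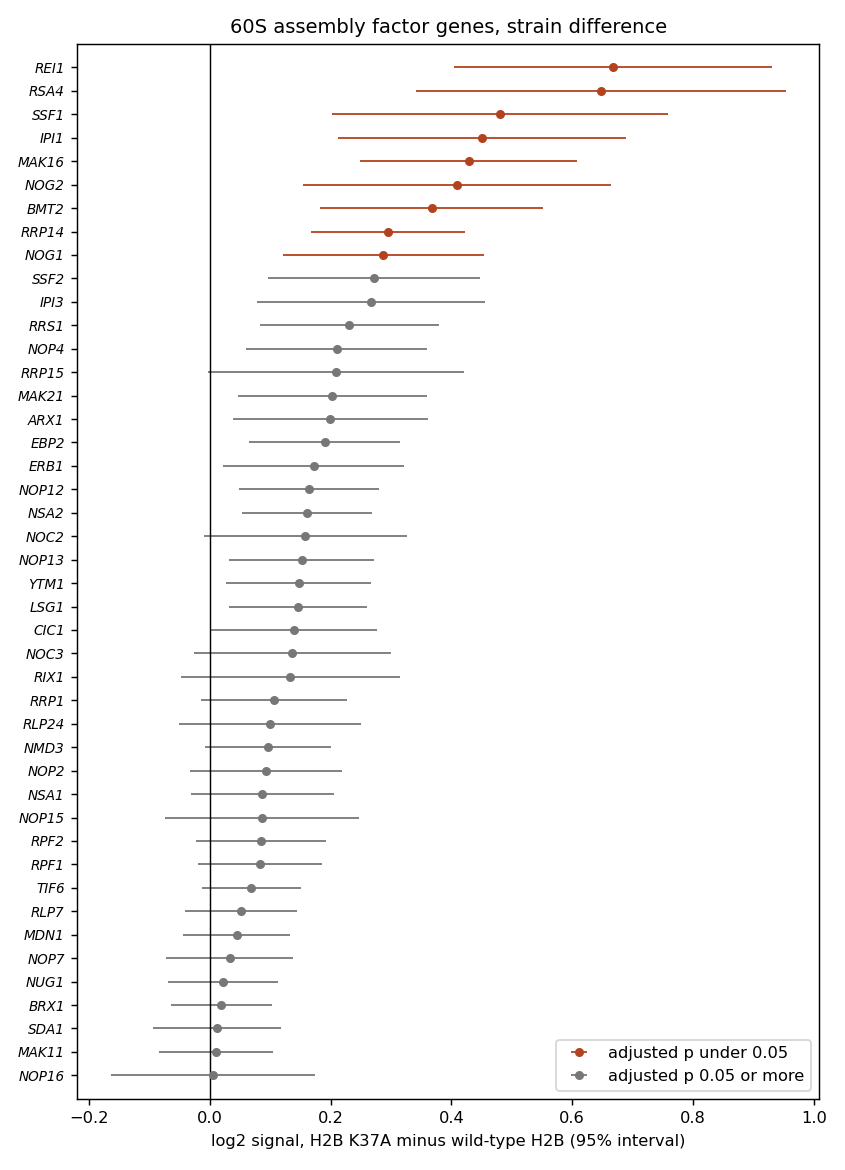
Difference in log2 signal, H2B K37A minus wild-type H2B, for the 44 genes, with the 95% interval from limma (3 arrays per strain). The points run from 0.01 for NOP16 to 0.67 for REI1, all above 0, and the 9 coloured points passed the adjusted p.

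Among factors of the last, cytoplasmic steps, *REI1* stood first. *REI1* (YBR267W) encodes a cytoplasmic zinc finger protein needed to release the export factor Arx1 from the subunit. Its log2 signal was 11.20, 11.50 and 11.58 on the K37A arrays and 10.62, 10.81 and 10.84 on the wild-type arrays. The lowest K37A array lay 0.35 above the highest wild-type array, the largest such gap of the 44. The difference was 0.67 (standard error 0.11), a ratio of 1.59 (adjusted p = 0.0218 from limma), the 17th largest rise of the 5498 probe sets. The other 4 factors of export and late maturation did not pass. Their K37A arrays all lay above the wild-type arrays, as for 20.6% of all tested probe sets. The gap was as small as 0.0054 for *NMD3* and 0.021 for *TIF6*. *ARX1*, an export factor that stays on the particle until Rei1 acts, had 12.58 ± 0.13 in K37A and 12.38 ± 0.04 in wild-type cells (SD, n = 3 each), a difference of 0.20. *LSG1*, the GTPase that frees the export adaptor Nmd3, differed by 0.15, *NMD3* by 0.10 and *TIF6*, whose product keeps the 60S subunit from joining the 40S too early, by 0.07. The *REI1* signal relative to *ARX1* on the same array was -1.27, -1.07 and -1.14 in K37A and -1.72, -1.60 and -1.57 in wild-type cells. This pair, among 16 compared, was chosen with the values known, so its separation restates the larger difference of *REI1*.

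A further 3 calls fell among the 8 genes of the nuclear GTPases, the Rix1 complex and the ATPase Rea1, which remodel the particle before export. The share called higher over all tested probe sets was 6.44%. *RSA4* (YCR072C) encodes the factor that Rea1 pulls on to restructure the pre-60S particle. It had 11.90, 12.10 and 12.37 on the K37A arrays and 11.31, 11.58 and 11.54 on the wild-type arrays, with no overlap, and differed by 0.65 (standard error 0.13), a ratio of 1.57 (adjusted p = 0.0294 from limma). *IPI1* (YHR085W), a subunit of the Rix1 complex, had 11.04, 11.23 and 11.39 in K37A and 10.66, 10.89 and 10.76 in wild-type cells. Its difference was 0.45 (standard error 0.10, adjusted p = 0.0355 from limma). *NOG2* (YNR053C), a GTPase that holds its place on the particle until the Rix1 complex and Rea1 have acted, had 12.38, 12.52 and 12.77 in K37A and 12.02, 12.21 and 12.21 in wild-type cells. It differed by 0.41 with an adjusted p of 0.0497 from limma, at the edge of the threshold.
The remaining genes of this group moved less. The other subunits of the Rix1 complex, *IPI3* and *RIX1*, differed by 0.27 and 0.13 (adjusted p = 0.0641 and 0.256 from limma). Relative to *RIX1* on the same array, *IPI1* was at -0.36, -0.28 and -0.31 in K37A and -0.76, -0.50 and -0.64 in wild-type cells. *MDN1* (YLR106C), which encodes Rea1 and is listed as REA1 in assembly R64, had 13.48, 13.47 and 13.54 in K37A and 13.42, 13.47 and 13.47 in wild-type cells, a difference of 0.04 whose 95% interval ran from -0.04 to 0.13. *NUG1*, a nucleolar GTPase, differed by 0.02. *SDA1*, needed for particles to leave the nucleus, had 12.86, 12.84 and 12.97 in K37A and 12.87, 12.89 and 12.88 in wild-type cells, a difference of 0.01.

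The Nsa1 and Ssf1 modules, which join the nucleolar particle early and leave it before the nucleoplasm, held 3 calls among 7 genes. Again, 6.44% of all tested probe sets were called higher. *SSF1* (YHR066W), a Brix domain protein, had 10.11, 10.36 and 10.59 in K37A and 9.83, 9.93 and 9.86 in wild-type cells. The K37A arrays spread over 0.24 (SD) and the wild-type arrays over 0.05, and the difference was 0.48 (standard error 0.12, adjusted p = 0.0434 from limma). Its paralog *SSF2* (YDR312W) had 9.94, 9.94 and 10.19 in K37A and 9.77, 9.75 and 9.74 in wild-type cells. The difference of *SSF2* was 0.27 (standard error 0.07, adjusted p = 0.0534 from limma), just outside the threshold. Close paralogs can share hybridization, and neither probe set is of the kind that Affymetrix marks as shared. The signal of *SSF1* relative to *SSF2* was 0.17, 0.42 and 0.40 in K37A and 0.06, 0.18 and 0.12 in wild-type cells, and these ranges overlap.
*MAK16* (YAL025C), a partner of Nsa1 and Rpf1, had 10.39, 10.42 and 10.62 in K37A and 9.96, 10.12 and 10.07 in wild-type cells, which gave a difference of 0.43 (SE 0.07, with an adjusted p of 0.0232 from limma). *RRP14* (YKL082C), which binds Ssf1, had 11.86, 11.87 and 12.01 in K37A and 11.58, 11.66 and 11.62 in wild-type cells, which gave a difference of 0.29 (SE 0.05, with an adjusted p of 0.0252 from limma). In both, every K37A array lay above every wild-type array, as for 20.6% of all tested probe sets. *RRP15*, which acts beside Rrp14, differed by 0.21 with overlapping groups and did not pass, and *NSA1* and *RPF1* differed by 0.09 and 0.08.

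**Figure D2:**
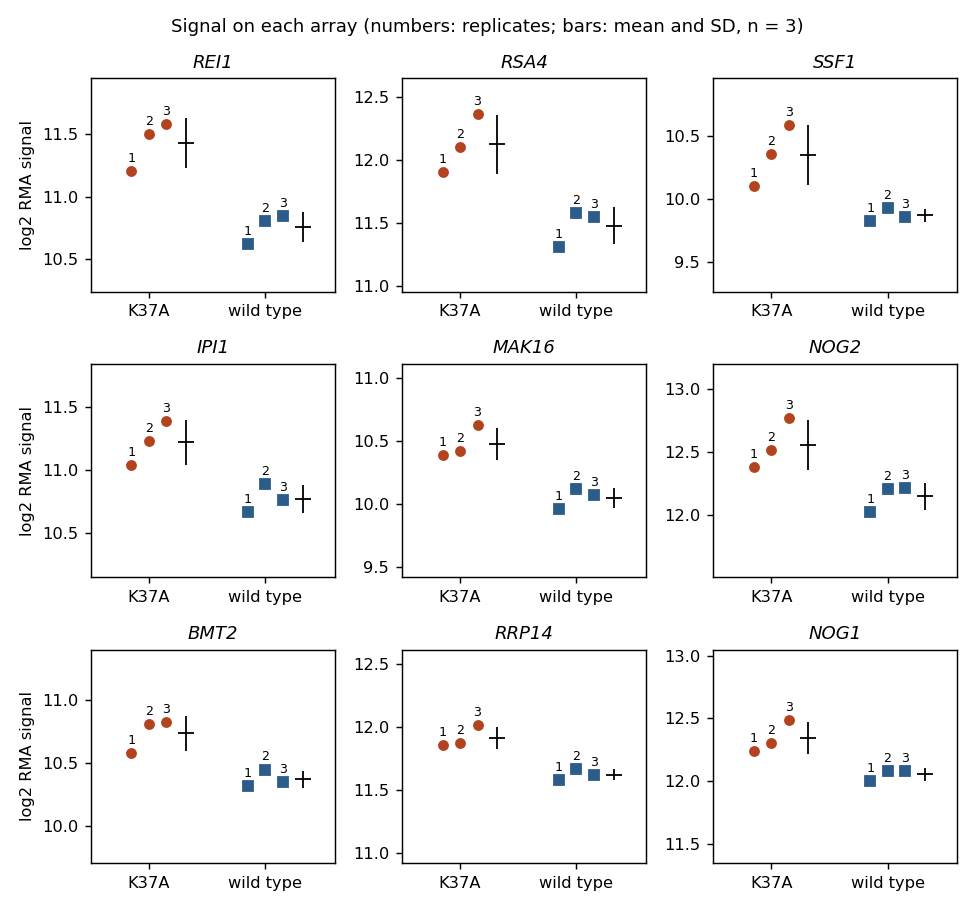
Log2 RMA signal of the 9 genes that passed the adjusted p, on each K37A array (circles) and wild-type array (squares), with the mean and SD of each strain (n = 3). Every axis spans the same number of log2 units. All K37A points lie above all wild-type points, and the K37A points are the more spread.

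Of the enzymes that methylate 25S rRNA, *BMT2* (YBR141C), an adenine methyltransferase, had 10.58, 10.81 and 10.83 in K37A and 10.32, 10.45 and 10.35 in wild-type cells. The groups did not overlap and the difference was 0.37 (standard error 0.08, adjusted p = 0.0326 from limma). *NOP2*, a cytosine methyltransferase that is also needed for assembly, differed by 0.09, with 13.20 ± 0.09 in K37A and 13.11 ± 0.03 in wild-type cells (SD, n = 3 each), and did not pass.

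*NOG1* (YPL093W), a GTPase that joins in the nucleolus and stays on the particle into the cytoplasm, had 12.24, 12.30 and 12.49 in K37A and 12.00, 12.08 and 12.08 in wild-type cells, which gave a difference of 0.29 (SE 0.07, with an adjusted p of 0.0437 from limma). Its partner *RLP24*, which holds the place of a ribosomal protein until the cytoplasm, differed by 0.10 with overlapping groups. *NSA2*, a nucleolar factor, differed by 0.16 without overlap and did not pass (adjusted p = 0.0579 from limma). *MAK11*, which acts in the recruitment of Rlp24, had 12.09, 12.14 and 12.17 in K37A and 12.16, 12.09 and 12.12 in wild-type cells. Its difference was 0.01 and its groups were interleaved.

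The A3 factors, which are needed for trimming of the rRNA precursor from the A3 cleavage site, gave no call among 7 genes. Over all tested probe sets 6.44% were called higher, so a count of 0 in so few genes lies near that share. All 7 differences were above 0. *ERB1* and *YTM1*, which form a complex with Nop7, differed by 0.17 and 0.15 (adjusted p = 0.106 and 0.0904 from limma), each with K37A arrays above wild-type arrays. *NOP7* itself had 12.67, 12.70 and 12.78 in K37A and 12.72, 12.69 and 12.65 in wild-type cells and differed by 0.03, with a 95% interval of -0.07 to 0.14. *CIC1*, *RRP1*, *NOP15* and *RLP7* differed by 0.14, 0.11, 0.09 and 0.05, all with overlapping groups. The 3 Noc proteins, which travel with the particle through the nucleolus and nucleoplasm, did not pass either, and are too few for this to set them apart. *MAK21* (Noc1) differed by 0.20, *NOC2* by 0.16 and *NOC3* by 0.14. In each the K37A arrays lay above the wild-type arrays, by 0.054, 0.017 and 0.0061. Such a separation held for 20.6% of all tested probe sets.
No call came from the RNA-binding factors of the early nucleolar particle, a group too small for this to set it apart. *NOP4*, a protein with RNA recognition motifs, differed by 0.21, *NOP12* by 0.16 and *NOP13* by 0.15 (adjusted p = 0.0654, 0.0640 and 0.0841 from limma). In all of them the K37A arrays lay above the wild-type arrays, as for 20.6% of all tested probe sets. *NOP16* had the smallest difference of the 44, 0.0054, with 12.10, 12.17 and 12.00 in K37A and 12.20, 12.09 and 11.97 in wild-type cells. Of the pair that brings the 5S ribonucleoprotein, *RRS1* differed by 0.23 (adjusted p = 0.0532 from limma) and *RPF2* by 0.08. *EBP2* differed by 0.19 (adjusted p = 0.0559 from limma), and its partner *BRX1* had 13.53, 13.60 and 13.54 in K37A and 13.54, 13.53 and 13.54 in wild-type cells, a difference of 0.02.

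**Figure D3:**
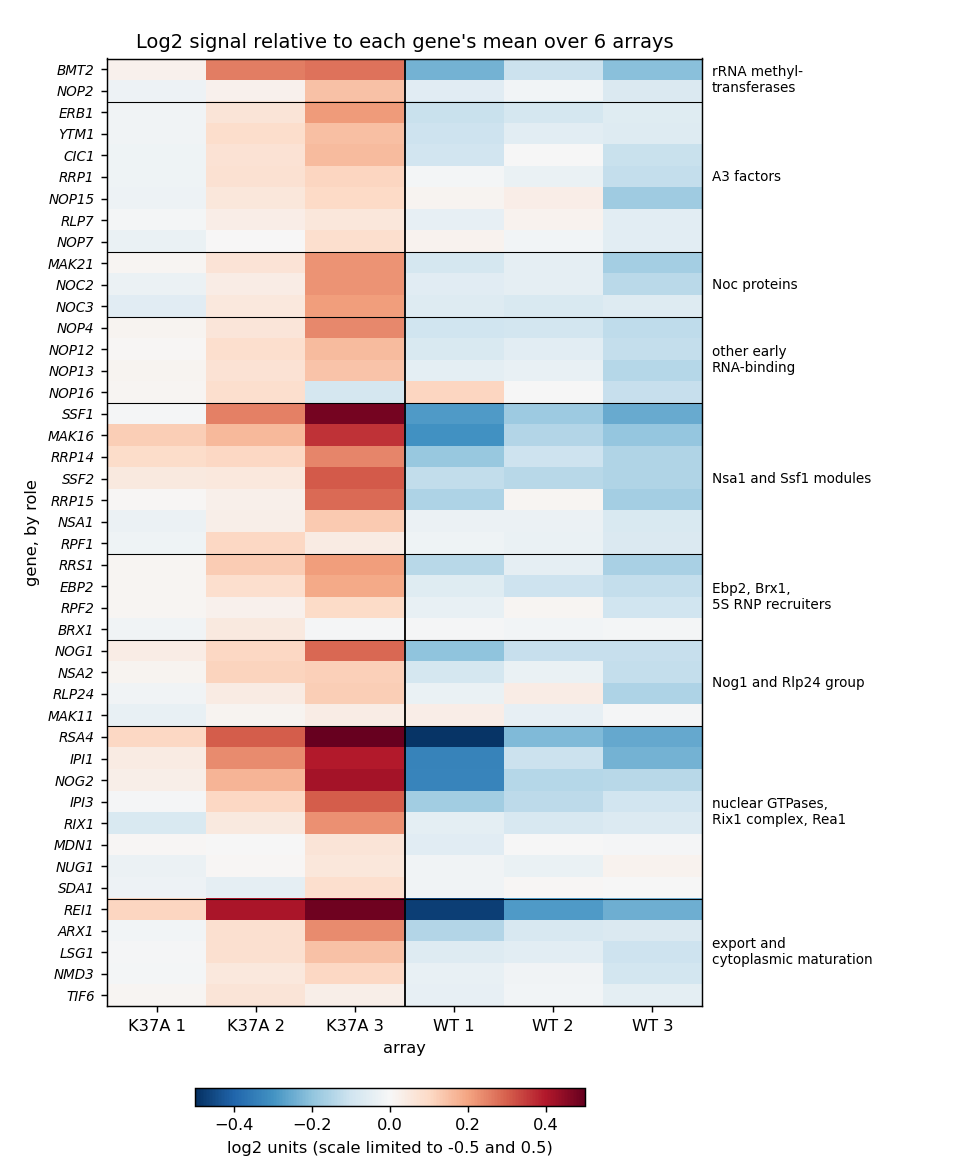
Log2 signal of the 44 genes on each array, relative to the gene's mean over the 6 arrays and grouped by role (colour limited to 0.5 in either direction). K37A replicate 3 is the highest array for 40 genes, K37A replicate 1 is close to the middle of the scale for most genes, and the wild-type arrays are mostly below the mean.

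The 3 K37A cultures were not alike. K37A replicate 3 was the highest of the 6 arrays for 40 of the 44 genes, against 31.6% of all tested probe sets, and K37A replicate 1 was the lowest of the K37A arrays for 41, against 34.6%. K37A replicate 3 lay above every wild-type array for 42 members, K37A replicate 2 for 39 and K37A replicate 1 for 28, against 41.2%, 33.8% and 31.0% of all tested probe sets. The SD between cultures was larger in K37A than in wild type for 38 of the 44, against 61.1% of all tested probe sets, and the median SD was 0.09 in K37A and 0.04 in wild-type cells. With each gene centred on its mean over the arrays, the mean of the 44 was 0.0038, 0.09 and 0.19 on the K37A arrays and -0.11, -0.06 and -0.11 on the wild-type arrays.
Genes of stress and reserve carbohydrates, which yeast induces when growth slows, lay mostly on the opposite side. The centred mean of 30 such genes was -0.05, -0.10 and -0.35 on the K37A arrays and 0.30, 0.13 and 0.07 on the wild-type arrays. Of the 30, 12 fell, none rose and 18 did not pass, with differences of -1.08 to 0.46, while 8.08% of all tested probe sets were called lower. *GLC3*, *DDR2* and *GPH1*, of glycogen synthesis, stress and glycogen breakdown, fell to ratios of 0.474, 0.509 and 0.512. Differences were below 0 for 25 of the 30 and above 0 for 5, so the list did not move as a whole. The 5 were *TKL2* (0.46), *GRE2* (0.22), *GRE1* (0.14), *HSP12* (0.03) and *SIP18* (0.03). In the paper all cultures were grown to about the same density. For the K37A strain it reports growth like wild type at several temperatures and on several complete media, without showing the data. No density or growth rate is given for the single cultures. The part of their state at harvest in the difference of the 60S assembly genes was not tested. In a further setting both K37A replicate 3 and wild-type replicate 1 were left out, the arrays lowest and highest for the stress genes (a choice made with the values known). The median of the 44 genes was then 0.10, 42 of the 44 differences were above 0, and 1 passed from limma. In this setting 2.35% of all tested probe sets were called and 1.27% were called higher. K37A replicate 3 was also the highest array for 40 of the 44 genes, so leaving it out lowers their differences by construction. This setting therefore cannot bear on the state of the cultures.

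**Figure D4:**
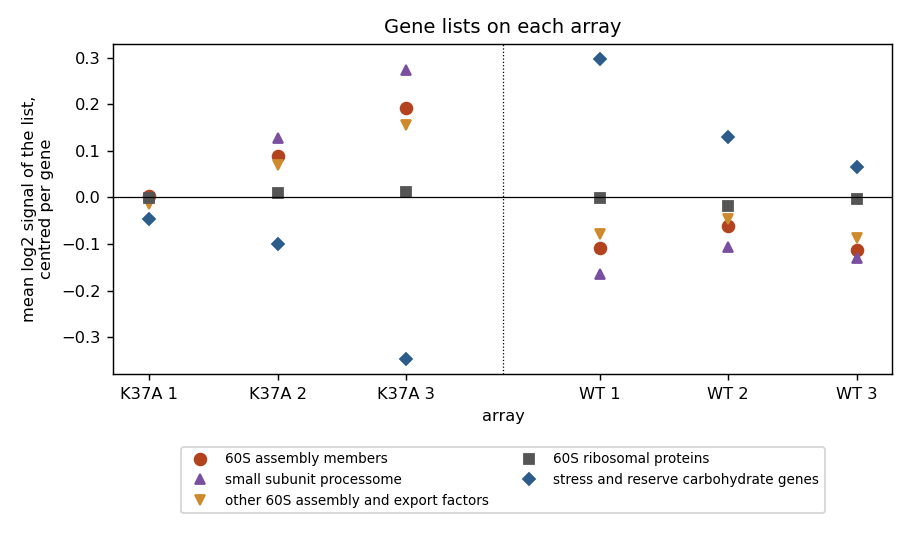
Mean log2 signal of 5 gene lists on each array, each gene centred on its mean over the 6 arrays. The 60S assembly genes run from 0.0038 to 0.19 on the K37A arrays and from -0.11 to -0.06 on the wild-type arrays, the stress and reserve carbohydrate genes take the opposite sides, and the 60S ribosomal protein genes stay within 0.02 of 0.

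Related genes of the pathway were set beside the 44 members. Of 36 other factors of 60S assembly and export, 4 rose, none fell and 32 did not pass, with a median difference of 0.12, and those that rose include *CGR1*, of rRNA processing, with a ratio of 1.34, and *URB2*, an early nucleolar factor, with 1.19. Of 11 RNA helicases of the 60S pathway, *DBP7* and *DBP10* rose, with differences of 0.76 and 0.26, and 9 did not pass, with a median of 0.13. Of 40 genes of the small subunit processome, which assembles the 40S subunit, 15 rose, none fell and 25 did not pass, with a median of 0.25. *UTP18* and *BFR2*, both processome components, rose by 0.60 and 0.58. Over all tested probe sets 6.44% were called higher and 8.08% lower. These lists share the arrays with the members, and no test was made between lists.
Genes of the ribosomal proteins themselves gave no call. Of 75 measured genes of 60S ribosomal proteins, none passed by limma and none had an unadjusted p under 0.05. Their median difference was 0.01 and their range -0.05 to 0.10. Many of them come in near-identical pairs, whose probes can share signal. They also give very strong signals: 72 of the 75 averaged 13 or more, a range in which 2.98% of all tested probe sets were called, against 16.1% of those below 13, and in which the median size of the difference over all tested probe sets was 0.03, against 0.11 below 13. The 7 members at 13 or more, *NOP2*, *RPF2*, *TIF6*, *RLP7*, *MDN1*, *NUG1* and *BRX1*, differed by 0.02 to 0.09 and none passed, while the 9 calls were among the 37 others. The part of signal strength in either result was not tested.
Known regulators of these genes were listed as well. *IFH1*, a coactivator of ribosomal protein genes, rose by 0.53 and *CRF1*, its antagonist, by 0.38 (adjusted p = 0.0393 and 0.0285 from limma). They are 18.2% of the 11 listed, a small list, where 6.44% of all tested probe sets were called higher. The *CRF1* signal was weak, 7.54 ± 0.14 in K37A and 7.16 ± 0.05 in wild-type cells (SD, n = 3 each). It was below that of the alpha-specific gene *STE3*, so its rise may not reflect an expressed transcript. *SFP1*, an activator of the regulon, differed by 0.04. The repressors of ribosome biogenesis genes went both ways, and none of them passed. *STB3* differed by -0.20, with every K37A array below every wild-type array. The paralogs *DOT6* and *TOD6* differed by -0.18, with overlapping groups, and by 0.44, with every K37A array above. The other 5 of the 11 listed did not pass.

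**Figure D5:**
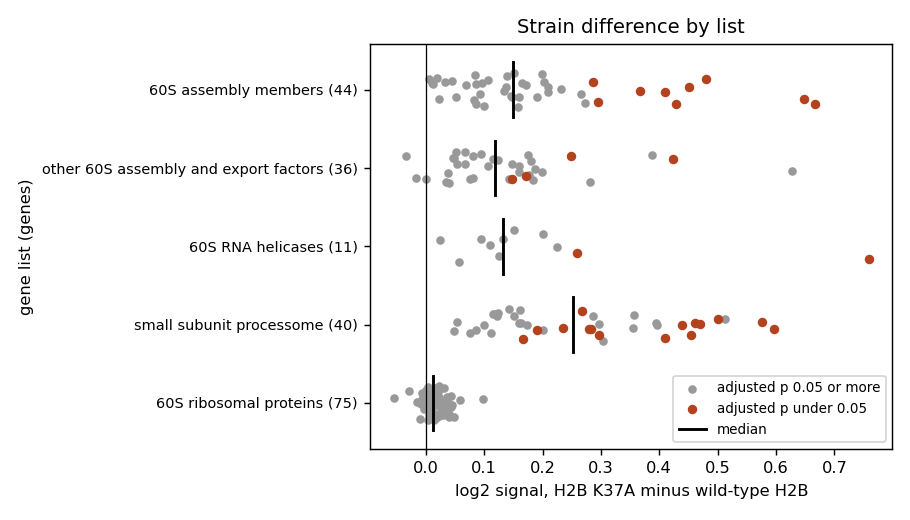
Difference in log2 signal, H2B K37A minus wild-type H2B, for each gene of 5 lists (points spread vertically for display), with the median of each list as a bar. The medians are 0.15 for the 60S assembly genes, 0.12, 0.13 and 0.25 for the other assembly lists, and 0.01 for the 60S ribosomal protein genes.

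The 44 genes are spread over 13 chromosomes. By gene order in assembly R64, 4 of them neighbour another listed gene of ribosome assembly, and the strand letters of the systematic names give the orientation of each pair. *NSA2* (YER126C) and *LCP5* (YER127W), a processome gene, are transcribed away from each other, and so are *BMT2* (YBR141C) and the helicase gene *MAK5* (YBR142W). *LCP5* rose by 0.47 and *NSA2* did not pass at 0.16, whereas *BMT2* rose by 0.37 and *MAK5* did not pass at 0.11. *UTP9* and *RIX1* lie one behind the other and differed by 0.41 and 0.13, and only *UTP9* passed. *RRP15* and *NOC4*, which are transcribed toward each other, differed by 0.21 and 0.20, and neither passed. These pairs and the comparisons between partners on the same array were chosen with the values known and were not tested.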

How the data were processed

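Total RNA of 6 cultures, 3 per strain, was hybridized to Affymetrix Yeast Genome 2.0 arrays. The labels name acid-extracted histones as the source but RNA as the molecule, and RNA was assumed. The authors deposited log2 signals from RMA in Affymetrix Expression Console (no versions named in the sources) for 10928 probe sets. RMA removes any shift shared by most transcripts. Probe sets were matched to the gene table of assembly R64 by gene ID, and the 5498 matched were fitted by limma 3.58.1 in R 4.3.3 with the strain as the only term, two-sided, with Benjamini-Hochberg adjustment and a threshold of 0.05. For each gene the brightest probe set was used. On 20 simulated data sets of 5498 probe sets for H2B K37A against wild-type H2B, noise was drawn independently for each probe set and 200 were changed. There limma recovered 62.4% of genes changed 1.2-fold and 97.4% of those changed 1.5-fold, and 5.28% of its calls were false. The real arrays hold deviations shared by many genes, which the simulation left out, so these rates do not carry over to the calls made here. The members and gene lists were chosen with earlier results of these data known. The genes given on each array are those past the threshold, those with the smallest differences, the strongest and weakest signals, and the paralogs *SSF1* and *SSF2*; *NOP7*, *MDN1* and the regulators that did not pass were added after their values were seen. Each array was left out in turn, and the replicate block, tested features, background filter, normalization, variance model and averaged probe sets were varied. The planned promoter motif search was not run, since no sequence was used here. Precision is limited by having 3 arrays per strain, and the labels give no batch.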

Additional observations from a re-analysis of the deposited data

How the results depend on the processing

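Leaving out 1 array, the number of members higher in K37A ranged from 0 to 21 and the number whose K37A arrays all lay below the wild-type arrays from 0 to 1 (*SDA1*, without K37A replicate 3). Groups with fewer arrays separate more readily, and the share of all tested probe sets lying wholly below is not given for settings with arrays left out. The number called higher was 3 with all 10928 probe sets tested, of which 2.57% were then called and 1.06% called higher. It was 16 with an intensity trend (17.6% called, 8.13% higher) and 23 with array weights (35.6% called, 17.2% higher). It was 1 (2.35% called, 1.27% higher) when both K37A replicate 3 and wild-type replicate 1 were left out, where 1 member, *SDA1*, lay wholly below wild type. It was 9 to 12 with the background filter, quantile normalization, median centring and averaged probe sets. There 14.6% to 15.8% of those tested were called and 6.5% to 8.09% were called higher. No member was called lower in any setting. The cause of these shifts was not tested. A fit with fewer arrays has fewer degrees of freedom, and the part of this in the counts was not tested either. The median of the 44 stayed at 0.10 to 0.20 in every setting in which it was computed.
Differences near 0 changed sign, none past the threshold. Over the single arrays left out, the lowest and highest values were -0.051 and 0.061 for *NOP16*, -0.0022 and 0.032 for *BRX1*, -0.00038 and 0.058 for *NOP7*, -0.0090 and 0.031 for *MAK11*, -0.00043 and 0.042 for *NUG1*, and -0.028 and 0.036 for *SDA1*. *SDA1* was at -0.029 with array weights. Without both arrays named above, *SDA1*, *NUG1* and *NOP16* were at -0.034, -0.0045 and 0.106.
Replicate numbers are shared between the strains, but deviations of same-numbered arrays from their strain means correlated at 0.40, -0.29 and 0.23, so the numbers were not taken to pair the cultures. With the replicate block, 10 members were called higher and none lower, with 17.2% of all tested probe sets called and 6.84% called higher.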
